A study of Saccharomyces cerevisiae with 40 samples.

Results

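A set of 25 budding yeast genes, measured by 26 probe sets, out of 5656 genes named by a probe set of their own, read higher 60 min after galactose in cells with a galactose-driven NMD2 gene than in matched cells without one. Nmd2 (also called Upf2) is a core factor of nonsense-mediated mRNA decay, the pathway that degrades transcripts on which ribosomes stop early. It bridges Upf1 and Upf3 on the messenger ribonucleoprotein. Direct substrates of the pathway are known to fall when Nmd2 returns; the probe sets described here were selected for the opposite direction.

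RNA of Saccharomyces cerevisiae was measured on 40 Affymetrix arrays, in 10 groups of 4 replicates that the series design calls independent. All groups share one host strain, in which NMD2 is disrupted by HIS3 (nmd2::HIS3, source HFY1400). GAL-NMD2 cells carried NMD2 behind the GAL1 promoter on a URA3 plasmid, and nmd2D cells carried the empty URA3 vector. Both were sampled 0, 10, 20, 40 and 60 min after galactose, so NMD2 returned from a plasmid and a strong promoter, and nmd2D carried no such gene throughout; Nmd2 protein was not measured. On the medium the sources differ: galactose was added to cultures in raffinose per the series design, whereas the samples' own growth protocol has only galactose medium, at 30 degrees C.

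The members were chosen from measured values. Of the 9275 probe sets that are not controls, 6504 carry 1 gene symbol, and 5639 of those had a mean log2(signal + 16) of at least 5 over the 40 arrays. GAL-NMD2 minus nmd2D was at least 0.4 on that log2 scale at 60 min for 84 of them. The difference at 0 min was within 0.2 for 41 of the 84, and GAL-NMD2 was above nmd2D in 4 of 4 replicate numbers at 60 min for 29 of the 41 (11.9% of all probe sets tested were). The rule left out NMD2, PTC7, SUR7, HUG1 and the ribosomal protein, RNR, GAL, HXT, TPS, HSP and SSA genes, which removed 3 more and left 26. Before any name was left out, the conditions met by the 29 were met in the other direction by 697 probe sets. The upward count depends on scaling: 702 probe sets met the rule with each array centred on its median. The values at 0 and 60 min that follow describe that choice and carry no test; the arrays at 10, 20 and 40 min were not used by it for a strain difference. They come from the same cultures, however: deviations from the group mean correlated at 0.70 to 0.79 between the 40 and 60 min arrays of the same strain and replicate number.

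Arrays had been scaled by the authors to a trimmed mean of about 250.2, and the median signal then differed between strains. At 60 min it was 61.2 to 70.3 on the GAL-NMD2 arrays and 77.4 to 85 on the nmd2D arrays. Centring each array on its median moved the median strain difference of all 7420 probe sets tested from 0.00 to 0.17 at 40 min and from -0.05 to 0.21 at 60 min. The actin 3-prime to 5-prime ratio, a sign of RNA and labelling quality, ran from 1.38 to 2.95 and overlapped between strains. The NMD2 probe set averaged 1038 ± 177 (SD, n = 4) at 0 min and 1654 ± 212 at 60 min in GAL-NMD2, against 895 ± 34.9 and 889 ± 132 in nmd2D. It therefore reads signal in the disrupted strain as well, and the 2 strains were 0.67 apart on the log2 scale at 40 min.

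**Figure D1:**
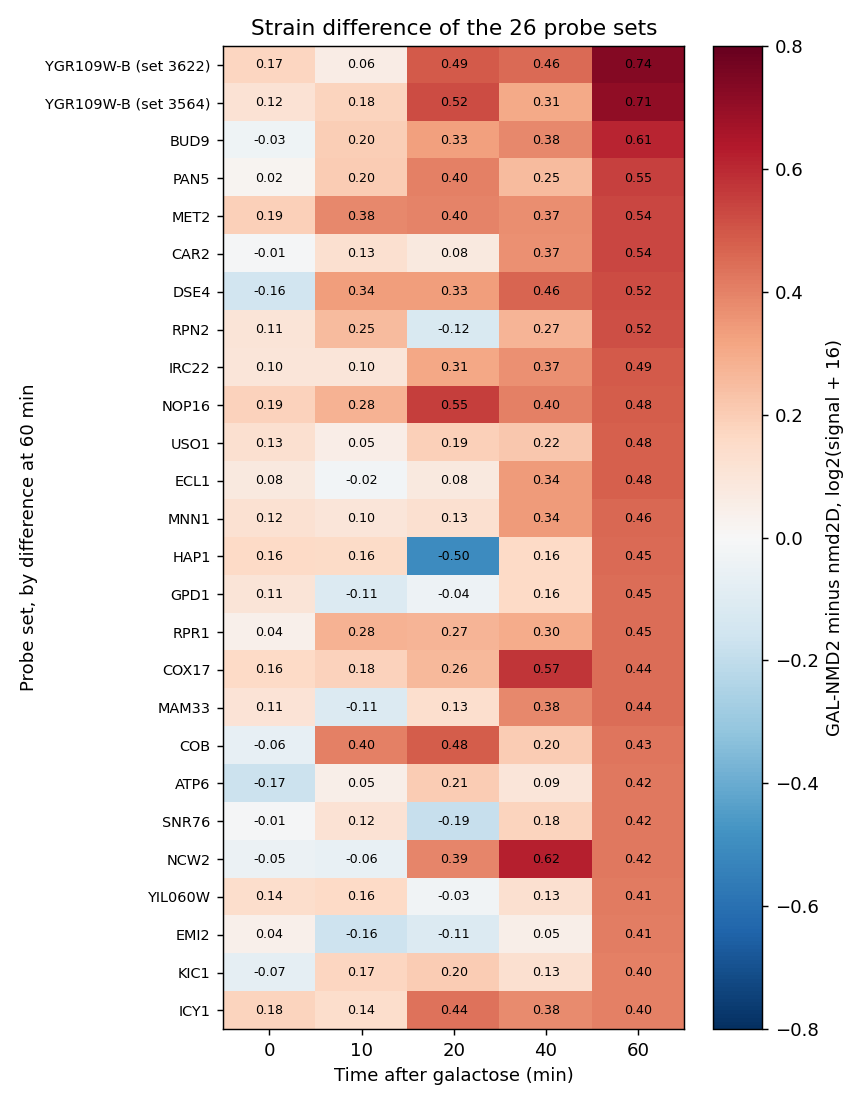
Mean strain difference (GAL-NMD2 minus nmd2D, log2(signal + 16)) of each of the 26 probe sets at 5 times, ordered by the difference at 60 min; colour and printed number show the same value, n = 4 arrays per group. At 40 min all 26 are above 0, from 0.05 for EMI2 to 0.62 for NCW2.

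The rule fixed where the set stands at 0 and 60 min. The times between were not fixed, but they share cultures with the arrays that chose the members. They are therefore no independent support. The median over the 26 was 0.10 before galactose, 0.15 after 10 min, 0.23 after 20 min, 0.32 after 40 min and 0.45 after 60 min, while the median of all probe sets tested was -0.04, 0.02, -0.03, 0.00 and -0.05. At 40 min every one of the 26 had a mean difference above 0, compared with 49.7% of all probe sets tested. Before galactose 18 of the 26 were above 0 already, compared with 39.5% of all. All 26 were above 0 at 40 min with quantile normalization too, in which the median of all probe sets tested was 0.06. Of the 26, 10 were higher in 4 of 4 replicate numbers at 40 min, where 11.6% of all probe sets were. These means are sensitive to single arrays: leaving out 1 replicate of 1 strain moved the difference at 40 min by over 1.5 times for 18 of the 26, while the other 8 (both YGR109W-B probe sets, CAR2, IRC22, NOP16, COX17, MAM33 and NCW2) moved by less.

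By the rule itself, the change from 0 to 60 min is higher in GAL-NMD2 than in nmd2D for every member. The rule left the direction within each strain open. Between 0 and 60 min the group mean of GAL-NMD2 was higher at the end for 23 of 26 members, with a median change of 0.33, and that of nmd2D for 8 of 26, with a median change of -0.11. GPD1, EMI2 and ICY1 were lower at 60 min than at 0 min in both strains, by less in GAL-NMD2. For these genes, higher after induction means a smaller drop: GPD1 changed by -0.73 in GAL-NMD2 and -1.08 in nmd2D, EMI2 by -0.29 and -0.66, and ICY1 by -0.33 and -0.55. No test was run on these changes and nothing is read from their counts, since their end points chose the members.

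At 40 min, 2 of the 26 passed the test between strains, both higher: NCW2, which encodes a cell wall protein, and COX17, which encodes the copper chaperone that delivers copper to cytochrome c oxidase. Over all 7420 probe sets 0.593% were called higher and 7.96% lower. The call is a Benjamini-Hochberg adjusted p under 0.05 over all probe sets from limma, fitted to the 10 groups without replicate number. Before adjustment 4 of 26 members had a limma p under 0.05, where 18.7% of all probe sets did. The 18.7% counts both directions, and more probe sets were called lower than higher. It is therefore no like background for members that were all above 0.

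NCW2 read 891.8, 1133.9, 1176.4 and 1073.8 in the GAL-NMD2 arrays at 40 min, and 585.5, 603.5, 694.3 and 893.2 in nmd2D. All 4 replicate numbers were higher in GAL-NMD2, but the groups overlapped because the lowest GAL-NMD2 array (number 1) sat just under the highest nmd2D array (number 4). The limma difference was 0.62 (SE 0.19), 1.54-fold on the log2(signal + 16) scale, adjusted p = 0.0270. At 0 min GAL-NMD2 averaged 799 ± 149 and nmd2D 819 ± 92.1 (SD, n = 4), and the means were 695 ± 163 and 718 ± 136 at 10 min. GAL-NMD2 then averaged 913 ± 66.3, 1069 ± 125 and 984 ± 159 at 20, 40 and 60 min, while nmd2D stayed between 694 and 733. Within GAL-NMD2, NCW2 was the 1 member that passed the test from 10 to 40 min, rising by 0.64 (SE 0.19, limma adjusted p = 0.0219), where 0.836% of all probe sets were called higher and 8.94% lower. In nmd2D the change was -0.05, and the difference of the 2 changes, 0.68 (SE 0.26), did not pass (adjusted p = 0.233); it passed for 0% of all probe sets in this direction and 2.33% in the other. With replicate number as a block that difference passed, with an adjusted p of 0.0480, where 0.162% of all probe sets did, and 8.37% in the other direction. The call at 40 min was lost without GAL-NMD2 replicate 3 or 4 (0.58 and 0.62) or nmd2D replicate 1, 2 or 3 (0.55, 0.56 and 0.63). The rise from 10 to 40 min lost its call without GAL-NMD2 replicate 2, 3 or 4 (0.42, 0.67 and 0.66). With only the arrays compared in the fit both calls were lost (limma adjusted p = 0.0709 at 40 min and 0.0943 for the rise), and with quantile normalization the first was (0.52, limma adjusted p = 0.0942).

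COX17 read 561.6, 681.2, 502.8 and 619.5 in GAL-NMD2 at 40 min, and 305.3, 530.9, 524.8 and 270.9 in nmd2D. The nmd2D arrays fell into a low pair, numbers 1 and 4, and a pair near 530, numbers 2 and 3, so the groups overlapped and replicate number 3 had a difference of -0.06. The limma difference was 0.57 (SE 0.17), 1.49-fold, adjusted p = 0.0295. It stood at 0.26 at 20 min, when GAL-NMD2 averaged 608 ± 38.6 and nmd2D 507 ± 66.1 (SD, n = 4). At 60 min the arrays no longer overlapped, with 439.1 to 576.5 in GAL-NMD2 against 345.6 to 386.6 in nmd2D. Earlier COX17 signals spanned 427.2 to 588.9, 471.8 to 543.1 and 565.6 to 659.2 at 0, 10 and 20 min with NMD2 induced, and 361.8 to 577.2, 343.2 to 528.6 and 437.4 to 569.1 without it. The strains overlapped at each of these times. The call at 40 min was lost without GAL-NMD2 replicate 1, 2 or 4 (0.59, 0.50 and 0.55) or nmd2D replicate 1 or 4 (0.46 and 0.40), and with only the arrays compared in the fit (0.57, limma adjusted p = 0.247).

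With replicate number as a block, 4 members passed at 40 min (BUD9, IRC22, COX17 and NCW2), where 3.27% of all probe sets were called higher and 15.8% lower. With each array centred on its median, 3 passed (IRC22, COX17 and NCW2), where 3.07% were higher, and with quantile normalization only COX17 did, where 1.35% were. No member passed at 10 min by limma (0.0135% of all probe sets were called higher and 0% lower) or with the block (0.0809% and 0.0404%). None passed at 20 min by limma (0.027% higher and 0.472% lower) or with the block (1.44% and 5.46%). The numbers with an unadjusted p under 0.05 in limma were 0 at 10 min and 5 at 20 min. For all probe sets these shares were 1.23% and 9.61%, with both directions counted.

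From 10 to 40 min in GAL-NMD2, 6 members passed with the block, 4 higher (the first YGR109W-B probe set, BUD9, MAM33 and NCW2) and 2 lower (GPD1 and EMI2), where 4.93% of all probe sets were called higher and 17.7% lower. With centring, 2 passed (4.96% higher), and with quantile normalization NCW2 rose and GPD1 fell (1.95% higher and 5.86% lower). In nmd2D over the same interval no member passed by limma (0% higher and 0.027% lower), and 2 had an unadjusted p under 0.05, as 5.0% of all probe sets did. With the block GPD1 and EMI2 passed as lower there, where 0.472% of all probe sets were called higher and 0.863% lower. Block and centring together, an alternative added after the data were seen, called 14 members higher at 40 min where 17.6% of all probe sets were higher and 11.2% lower. That fit called 4 higher at 20 min (4.1% and 3.3%), 10 higher and 2 lower in GAL-NMD2 from 10 to 40 min (19.9% and 10.8%), 2 lower in nmd2D (0.674% and 1.24%) and 2 higher for the difference of the changes (1.63% and 3.99%).

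**Figure D2:**
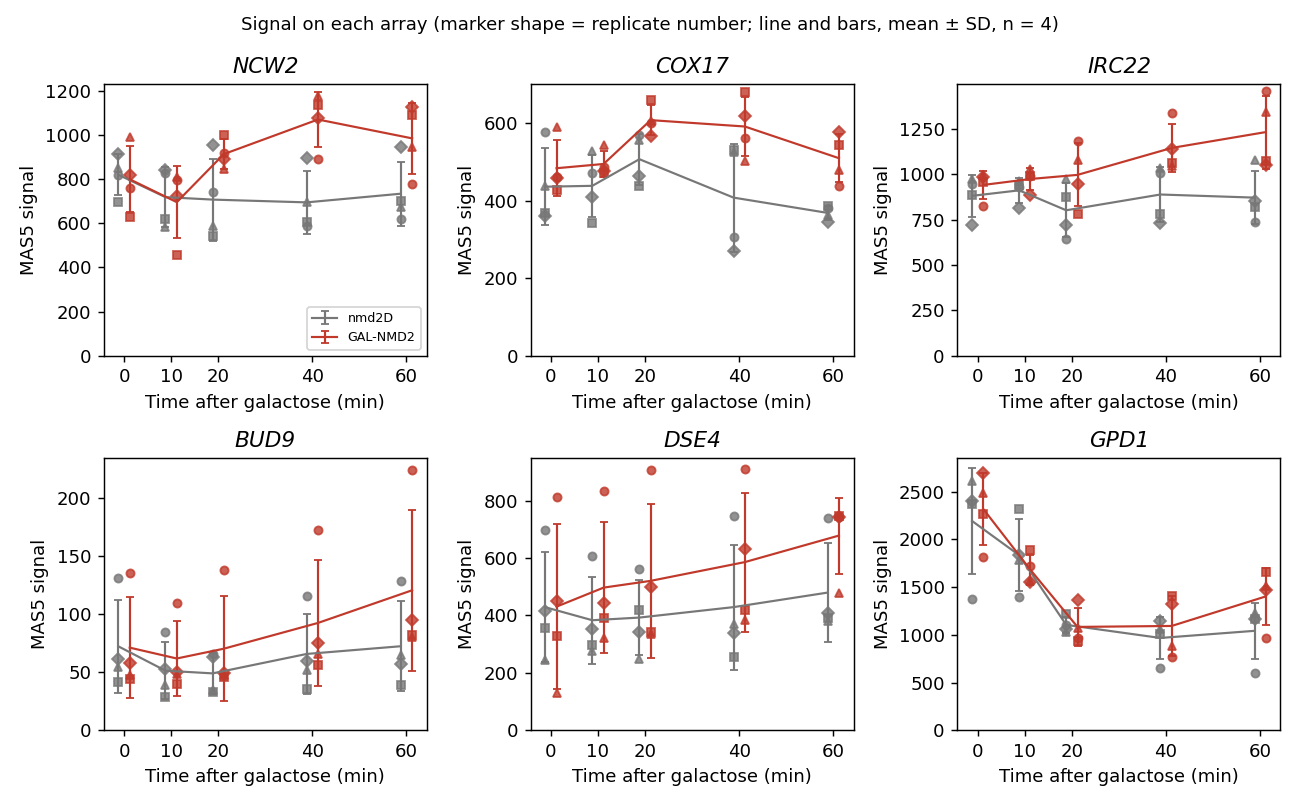
MAS5 signal (linear axis from 0) on each array against time after galactose for 6 members; marker shape gives the replicate number, lines join group means, bars are SD, n = 4. The means of NCW2 and COX17 are apart by 40 min, while their arrays still overlap between strains. Replicate 1 is the highest array of BUD9 in 10 of 10 groups and of DSE4 in 9. GPD1 drops in both strains.

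Of the members, 5 act at the cell surface or in its building, NCW2 among them. BUD9 encodes a marker protein of bipolar bud-site selection, DSE4 encodes a daughter-cell glucanase that helps mother and daughter separate, MNN1 a Golgi mannosyltransferase that caps mannan chains, and KIC1 a kinase of cell wall integrity and morphogenesis. More cells of a kind and more RNA per cell cannot be told apart in such culture samples. DSE4 is in the list of mitotic and G1 entry genes, of which 33 others were tested: 14 had a difference above 0 at 40 min, their median was -0.04 and 0 were called in either direction. MNN1 is in the list of G1 and S phase genes, where 22 of 36 others were above 0, with a median of 0.05 and 0 called in either direction. How far the mix of cells in the cultures enters the differences of these members was not tested.

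BUD9 read 224.6, 82.5, 80.6 and 94.8 in GAL-NMD2 at 60 min, and 128.6, 39.3, 65.0 and 56.7 in nmd2D. Replicate 1 was the highest array in all 10 groups, so the groups overlapped although each replicate number favoured GAL-NMD2, by 0.25 to 0.83. At 40 min the difference was 0.38 (SE 0.38), higher in 4 of 4 numbers, and did not pass in limma (adjusted p = 0.719). With replicate number as a block the adjusted p was 0.0262. The difference became 0.08 without GAL-NMD2 replicate 1, 0.19 when nmd2D replicate 2 was dropped and 0.64 when nmd2D replicate 1 was. Group ranges at 0, 10 and 20 min were 44 to 135.5, 39.9 to 109.4 and 45.8 to 138.3 in GAL-NMD2, against 42 to 131, 28.5 to 84.8 and 32.9 to 65.3 in nmd2D. From 10 to 40 min the change in GAL-NMD2 passed only with the block, at 0.45 (adjusted p = 0.00822).

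DSE4 read 744.1, 745.2, 479.8 and 743.7 in GAL-NMD2 at 60 min, and 737.7, 390.8, 379.6 and 410.1 in nmd2D. Replicate number 1 showed almost no difference (0.01), and numbers 2 and 4 showed the most (0.90 and 0.83). At 40 min GAL-NMD2 ranged from 382.7 to 909.3 and nmd2D from 256.5 to 747.3, a difference of 0.46 (SE 0.41) that was higher in 4 of 4 numbers and did not pass (limma adjusted p = 0.658). Over the fits without 1 replicate it ran from 0.23 to 0.76. Earlier DSE4 signals spanned 130.4 to 813.5, 320.7 to 831.7 and 333.7 to 906.3 at 0, 10 and 20 min with NMD2 induced, and 244.8 to 695.9, 275.2 to 605.9 and 249.6 to 561 without it. Both strains overlapped each time.

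MNN1 ranged from 269.6 to 607.8 in GAL-NMD2 and from 186 to 391 in nmd2D at 60 min, with replicate 1 highest in both. Its mean difference was 0.34 at 40 min and 0.46 at 60 min. The value at 40 min became 0.04 without the first GAL-NMD2 replicate, 0.13 without the second of nmd2D and 0.64 without the first of nmd2D. Both strains had a higher mean at 60 than at 0 min, by 0.75 in GAL-NMD2 and 0.41 in nmd2D. KIC1 had differences of 0.13 at 40 min and 0.40 at 60 min, when GAL-NMD2 read 89.5 to 127.3 and nmd2D 60 to 92, and its difference at 40 min became -0.07 without GAL-NMD2 replicate 1. Among the 36 tested genes of the list of cell wall proteins and integrity, which holds no member, 0 were called higher and 1 lower at 40 min, and their median difference was 0.02.

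The members include 3 enzymes of small-molecule synthesis or breakdown. PAN5 encodes a reductase of pantothenate synthesis, MET2 the homoserine O-acetyltransferase that feeds methionine synthesis, and CAR2 the ornithine transaminase of arginine breakdown. CAR2 read 879.0, 824.6, 753.5 and 732.9 in GAL-NMD2 at 60 min and 392.6, 690.1, 479.5 and 671.9 in nmd2D. These groups did not overlap, with the widest gap in replicate number 1 (1.13) and the narrowest in number 4 (0.12). At 40 min its difference was 0.37 (SE 0.22), higher in 3 of 4 numbers, and did not pass (limma adjusted p = 0.412). CAR2 signals spanned 451 to 725, 691.6 to 1171.3, 472.3 to 1161.5 and 726.3 to 979.1 at 0, 10, 20 and 40 min with NMD2 induced, and 549.3 to 716.1, 724.6 to 825.3, 506.1 to 1082.2 and 537.1 to 802.3 without it. At each of these times the strains overlapped.

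PAN5 read 412.6, 348.0, 463.3 and 374.8 in GAL-NMD2 at 60 min and 205.2, 207.7, 390.0 and 303.8 in nmd2D. The groups overlapped through nmd2D replicate 3, and numbers 1 and 2 gave the larger differences (0.95 and 0.70). At 40 min it was higher in 4 of 4 numbers, with a mean difference of 0.25, or 0.04 without nmd2D replicate 2. PAN5 signals spanned 201.6 to 422.2, 206.2 to 407.7, 236.4 to 321.4 and 272.1 to 398.8 at 0, 10, 20 and 40 min with NMD2 induced, and 204.3 to 320.4, 229.4 to 286.7, 158.3 to 289.3 and 174.7 to 371.6 without it. Ranges of the strains overlapped throughout.

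MET2 had the largest SE of the members at 40 min. It read 13.2, 158.9, 67.0 and 156.9 in GAL-NMD2 at 60 min and 8.9, 77.9, 54.1 and 84.9 in nmd2D, so replicate 1 was low in both strains. Its difference of 0.37 at 40 min carried an SE of 0.78, and it went to -0.05 when GAL-NMD2 replicate 2 was left out and to -0.12 when nmd2D replicate 1 was. In the list of sulfate assimilation and methionine genes that holds it, 0 of 28 were called higher and 3 lower at 40 min, with a median difference of 0.06. MET2 itself spanned 10.9 to 112.7, 9.1 to 204.7, 2.4 to 212.9 and 14.2 to 229.1 at 0, 10, 20 and 40 min with NMD2 induced, and 5.8 to 100.5, 16.5 to 123.8, 8.6 to 146.9 and 12.4 to 111.1 without it. Overlap between the strains was present each time.

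RPN2 encodes a scaffold subunit of the proteasome regulatory particle, and NOP16 a factor of 60S ribosomal subunit assembly in the nucleolus. RPN2 read 393.1, 441.6, 530.4 and 421.1 in GAL-NMD2 at 60 min and 369.0, 271.3, 378.3 and 228.4 in nmd2D. All GAL-NMD2 arrays lay above all nmd2D arrays, although number 1 differed by 0.09 only. The difference was -0.12 at 20 min and 0.27 at 40 min (0.17 without nmd2D replicate 4), where 3 of 4 numbers were higher. RPN2 signals spanned 247.3 to 608.4, 382.6 to 584, 234 to 552.3 and 326.6 to 447.7 at 0, 10, 20 and 40 min with NMD2 induced, and 298.4 to 428.1, 279.6 to 464.4, 299.4 to 423 and 252.9 to 376.9 without it. Again the strains overlapped each time.

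NOP16 read 168.6, 136.1, 144.0 and 149.2 in GAL-NMD2 at 60 min and 104.6, 92.9, 117.1 and 95.0 in nmd2D, again without overlap. Its difference had reached 0.55 at 20 min and was 0.40 (SE 0.20) at 40 min, which did not pass (limma adjusted p = 0.287). NOP16 signals spanned 86.2 to 162.5, 69.5 to 148.4, 104.5 to 147.8 and 110.8 to 161.4 at 0, 10, 20 and 40 min with NMD2 induced, and 76.9 to 111.6, 65.7 to 117.5, 53.2 to 108.1 and 76.8 to 126.4 without it. The strains overlapped at each of these times. Without NOP16, 51 of 59 ribosome biogenesis genes had a difference above 0 at 40 min, with a median of 0.20 and 0 called in either direction. Without RPN2, 31 of 36 proteasome genes did, with a median of 0.17 and 0 called in either direction. With replicate number as a block, 2 genes of each list passed as higher. The medians were 0.30 and 0.22 with quantile normalization. At 60 min they were 0.05 and 0.15.

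Beside COX17, 3 members act in the mitochondrion. MAM33 encodes an acidic matrix protein from the nucleus, and the mitochondrial genome encodes COB, which is cytochrome b, and ATP6, a subunit of ATP synthase. MAM33 read 978.7, 628.6, 651.3 and 729.3 in GAL-NMD2 at 60 min and 607.1, 529.5, 588.2 and 437.5 in nmd2D, without overlap. It did not overlap at 40 min either, with 712.8 to 1059.5 in GAL-NMD2 and 596.4 to 636.7 in nmd2D. IRC22 was the other member without overlap at 40 min, which makes 2 of 26, where 1.67% of all probe sets had none. The limma difference of MAM33 at 40 min was 0.38 (SE 0.27), adjusted p = 0.525. Within GAL-NMD2 its change from 10 to 40 min passed only with replicate number as a block, at 0.54 (adjusted p = 0.0112).

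The mean of COB at 60 min rests on replicate number 4, and that of ATP6 on numbers 1 and 4. COB differed by 0.04, 0.16, 0.09 and 1.43 in replicate numbers 1 to 4 at 60 min, and ATP6 by 0.50, 0.02, 0.02 and 1.14. In number 4 at 60 min, ATP6 read 1254.9 in GAL-NMD2 and 559.8 in nmd2D, and COB 40.2 and 4.9. That number already differed by 0.34 at 0 min and 1.39 at 10 min for COB, and by 0.40 and 1.07 for ATP6. The mean differences of COB and ATP6 at 10 min were 0.40 and 0.05. The mean difference at 40 min was 0.20 for COB and 0.09 for ATP6. Without nmd2D replicate 4 these became -0.03 and -0.12, without GAL-NMD2 replicate 1 they became -0.11 and -0.04, and without GAL-NMD2 replicate 4 that of ATP6 became -0.07. The mitochondrial genome's protein genes with a mean of at least 5, a class put together after the values were seen, have 8 probe sets that are no members. All 8 were above 0 at 60 min, with a median of 0.24, and at 40 min, with a median of 0.29. Before galactose COX3, OLI1, AI1 and AI5_ALPHA already stood at 0.26, 0.25, 0.15 and -0.05. Those of COX1 stood at 0.07, -0.06 and 0.03, and the other one of COB at 0.35. By replicate number the median of the 8 at 60 min was 0.15, -0.02, 0.16 and 0.84. It was highest in number 4, as in the classes of noncoding RNA described below. The actin ratio in number 4 at 60 min was 1.67 in GAL-NMD2 and 1.47 in nmd2D, inside the range of the other arrays, and its part in the result was not tested. Transcripts of the mitochondrial genome lack the long poly(A) tails of nuclear messages. None of the class, COB and ATP6 included, passed at 40 min. Of 64 nuclear genes of mitochondrial ribosomal proteins, which include no member, 61 had a difference above 0 at 40 min with a median of 0.24 and 2 called higher. Their median was the highest of the 37 gene lists examined. Of 33 nuclear genes of the respiratory chain and ATP synthase, a list without a member, 17 were above 0 at 40 min, with a median of 0.03 and 0 called in either direction.

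RPR1, the RNA subunit of nuclear RNase P, and SNR76, a box C/D small nucleolar RNA, are noncoding RNAs. RPR1 ranged from 30.2 to 128 in GAL-NMD2 and from 21.1 to 83.3 in nmd2D at 60 min, and replicate numbers 1 to 4 differed by 0.54, 0.03, 0.32 and 0.90. SNR76 was dim, at 15.4 to 46.1 against 10.2 to 22.5. Their differences at 40 min were 0.30 and 0.18. That of RPR1 became 0.02 without GAL-NMD2 replicate 1 and 0.68 without GAL-NMD2 replicate 3, and that of SNR76 ran from 0.07 to 0.36 over the 8 fits without 1 replicate. Among 36 small nucleolar RNA probe sets with a mean of at least 5, 27 were above 0 at 40 min and 24 at 60 min, with 1 called higher at 40 min, and the median at 60 min was 0.11. Of 8 probe sets of other noncoding RNAs, RPR1 among them, 5 were above 0 at 40 min (median 0.06) and 3 at 60 min (median -0.08). Without the members, the small nucleolar RNA medians at 60 min were -0.01, -0.02, -0.14 and 0.45 in replicate numbers 1 to 4. Those of the other noncoding RNAs were -0.13, -0.21, -0.33 and 0.22, so number 4 was highest in both classes. Both classes were also assembled after the values were seen.

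GPD1 and EMI2 belong to sugar metabolism. GPD1 encodes the glycerol-3-phosphate dehydrogenase of glycerol synthesis, and EMI2 a hexokinase-like paralogue of glucokinase. GPD1 read 966.4, 1659.3, 1511.4 and 1474.7 in GAL-NMD2 at 60 min and 600.8, 1170.0, 1230.7 and 1166.8 in nmd2D, after 1818.8 to 2701 and 1380.8 to 2617.3 at 0 min. The arrays of both strains were therefore lower at 60 min than at 0 min, and the strain difference at 40 min was 0.16 for GPD1 and 0.05 for EMI2. That of GPD1 became -0.02 without nmd2D replicate 1, and that of EMI2 became -0.12 without GAL-NMD2 replicate 4, or -0.06 if nmd2D replicate 2 or 3 was left out. Each fell from 10 to 40 min in both strains in the fit with replicate number as a block: GPD1 by 0.65 in GAL-NMD2 (limma adjusted p = 0.00157) and EMI2 by 0.54 (adjusted p = 0.00113). In nmd2D they fell by 0.92 and 0.75 in the same fit. GPD1 is in the lists of environmental stress response genes and of trehalose, glycogen and glycerol genes, with medians of -0.14 and 0.02 at 40 min, 1 gene called higher and 2 lower in each.

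IRC22 encodes a protein of the endoplasmic reticulum about which little is known. It read 1456.6, 1072.0, 1343.2 and 1051.8 in GAL-NMD2 at 60 min and 734.1, 819.9, 1077.4 and 850.1 in nmd2D. At 40 min it read 1334.7, 1059.6, 1041.8 and 1138.3, against 1003.1, 782.6, 1031.3 and 733.0. The groups did not overlap at 40 min, but number 3 differed by 0.01 only. The limma difference at 40 min was 0.37 (SE 0.15), adjusted p = 0.138, and 0.0343 with replicate number as a block. Earlier IRC22 signals spanned 824 to 995.2, 887.2 to 1025.5 and 779.4 to 1179.6 at 0, 10 and 20 min with NMD2 induced, and 718.1 to 973.3, 811.5 to 964.1 and 640.4 to 972 without it. Both strains overlapped each time. ECL1, linked to chronological lifespan, read 1082.5, 914.5, 769.3 and 1382.0 in GAL-NMD2 at 60 min and 530.8, 798.2, 654.1 and 981.6 in nmd2D. Replicate 4 was high in both strains and number 1 gave the largest difference (1.01); at 40 min the mean difference was 0.34, higher in 4 of 4 numbers, and 0.14 to 0.63 with 1 replicate left out. ECL1 signals spanned 694.6 to 1142.3, 633.6 to 1269, 572.2 to 1004.8 and 723.4 to 1422.8 at 0, 10, 20 and 40 min with NMD2 induced, and 612.1 to 1057.3, 727.8 to 932.4, 641 to 1148.8 and 554.3 to 1366.2 without it. At each of these times the strains overlapped. ICY1, of little known function, differed by 0.38 at 40 min, or 0.02 to 0.81 with 1 replicate left out, and by 0.40 at 60 min.

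USO1 encodes the tether for vesicles between the endoplasmic reticulum and the Golgi. Its member probe set read 54.0, 34.6, 38.9 and 29.3 in GAL-NMD2 at 60 min and 25.9, 25.9, 24.9 and 16.5 in nmd2D. The groups did not overlap, and 4 of 4 numbers were higher at 40 min as well, with a mean of 0.22 (0.09 to 0.34 with 1 replicate left out). The member probe set spanned 21.8 to 34.6, 23.4 to 38.5, 17.5 to 55.4 and 19.4 to 41 at 0, 10, 20 and 40 min with NMD2 induced, and 19.1 to 34.3, 20 to 37.1, 15.2 to 30.3 and 12.3 to 32 without it. Ranges of the strains overlapped throughout. The 6 other probe sets of USO1 were all dimmer than a mean of 5, with differences from -0.10 to 0.08 at 60 min. HAP1 encodes the haem-responsive activator of respiratory genes. Its member probe set had a difference of -0.50 at 20 min, 0.16 at 40 min (0.01 to 0.50 with 1 replicate left out) and 0.45 at 60 min. Its 2 other probe sets read 0.21 and 0.36 at 60 min. The one at 0.36 is also of the f_at kind described below and read -0.48 at 20 min. The one at 0.21 was dimmer (mean 5.92), and read -0.26 at 0 min and 0.04 at 20 min.

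The largest difference of all belonged to 2 of the probe sets annotated to YGR109W-B, the gag-pol reading frame of a Ty3 retrotransposon. The first read 1551.8, 1373.4, 1636.0 and 1785.0 in GAL-NMD2 at 60 min and 913.6, 1166.4, 990.2 and 746.9 in nmd2D. The second read 1175.4, 1449.1, 1665.8 and 1663.9, against 836.4, 975.5, 1051.4 and 753.9. Neither pair of groups overlapped at 60 min, and replicate number 4 differed most in both (1.24 and 1.13). Number 4 already differed by 0.65 and 0.86 before galactose. Numbers 1 and 2 went the other way at 0 min, and the mean differences then were 0.17 and 0.12. At 40 min the first differed by 0.46 (SE 0.20, limma adjusted p = 0.186) and the second by 0.31, each with number 1 in the other direction. From 10 to 40 min the first changed by 0.49 in GAL-NMD2, which passed only with replicate number as a block (adjusted p = 0.0318). This first probe set spanned 706.3 to 1065.9, 817.4 to 1058.4, 1173.5 to 1416.2 and 966.7 to 1713.9 at 0, 10, 20 and 40 min with NMD2 induced, and 585.5 to 1250.8, 778.7 to 1216.3, 712.3 to 1143 and 785.2 to 1242.6 without it. The strains overlapped at these times except at 20 min, when 1.17% of all probe sets had GAL-NMD2 clear above nmd2D. The second probe set spanned 787.7 to 1170.4, 961.1 to 1153.2, 764.5 to 1579.4 and 1174.3 to 1614.6 at 0, 10, 20 and 40 min with NMD2 induced, and 614 to 1335.8, 814.4 to 1208.6, 431.6 to 1207.2 and 901.9 to 1353.6 without it. Overlap between the strains was present each time.

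These probe sets cannot stand for the gene as a whole. The annotation gives 23 probe sets the single symbol YGR109W-B, and the other 21 had differences from -0.97 to 0.32 at 60 min, with a median of -0.05 and 14 of them below 0. At 40 min 17 of the 21 were below 0. A further 8 probe sets share that symbol with others. Both members are of the f_at kind, as are those of HAP1 and YIL060W, which Affymetrix uses for probe sets that may match a family of similar sequences. YIL060W, a reading frame of unknown function, had member differences of 0.13 at 40 min (0.03 to 0.24 with 1 replicate left out) and 0.41 at 60 min, beside 0.34, -0.06 and -0.25 in its 3 other probe sets. At 0 min those 3 had stood at 0.34, 0.25 and -0.03. COB had 1 other probe set, at 0.42 at 60 min, which missed the rule through a difference of 0.35 at 0 min. The other 20 genes have 1 probe set each.

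**Figure D3:**
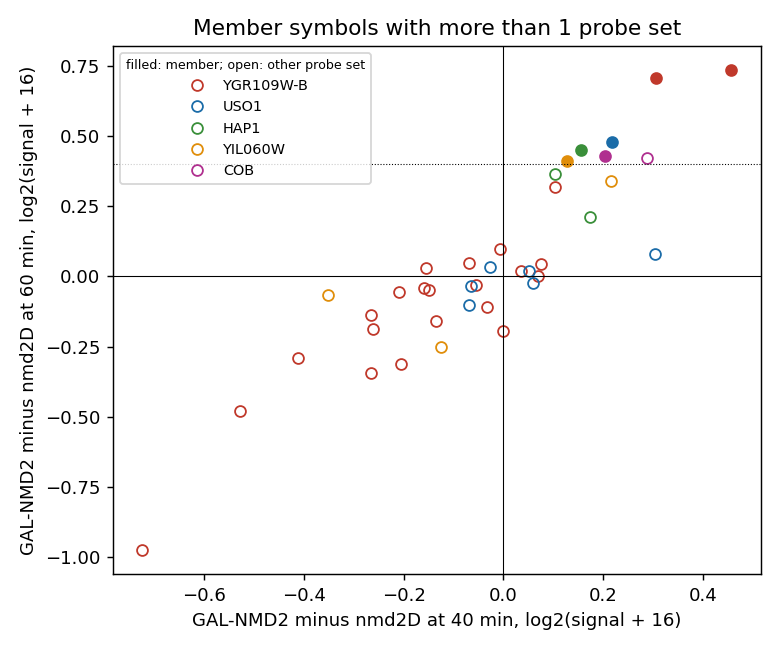
Strain difference at 40 min (x) and 60 min (y), both as GAL-NMD2 minus nmd2D in log2(signal + 16), for all single-symbol probe sets of the 5 member genes that have more than 1; filled points are members, open points other probe sets, and the dotted line is the threshold of 0.4. The 2 YGR109W-B members stand at the top right while 14 of its 21 other probe sets lie below 0 at 60 min.

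How far the 4 cultures shared a difference varied between members. At 60 min 8 of the 26 had no overlap between the strains' arrays, where 1.37% of all probe sets had none: both YGR109W-B probe sets, CAR2, RPN2, NOP16, USO1, COX17 and MAM33. Since the rule used these arrays, nothing is read from that share. For 15 members each of the 4 same-numbered differences was at least 0.2, and for 7 the smallest was under 0.1. The largest difference fell in number 4 for 11 members, in number 1 for 10, in number 2 for 5 and in number 3 for 0. NMD2 itself was lowest among the GAL-NMD2 arrays in replicate 1 at 40 and 60 min, at 1083 and 1363.3, and highest in replicate 3, at 1711.3 and 1865.3.

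**Figure D4:**
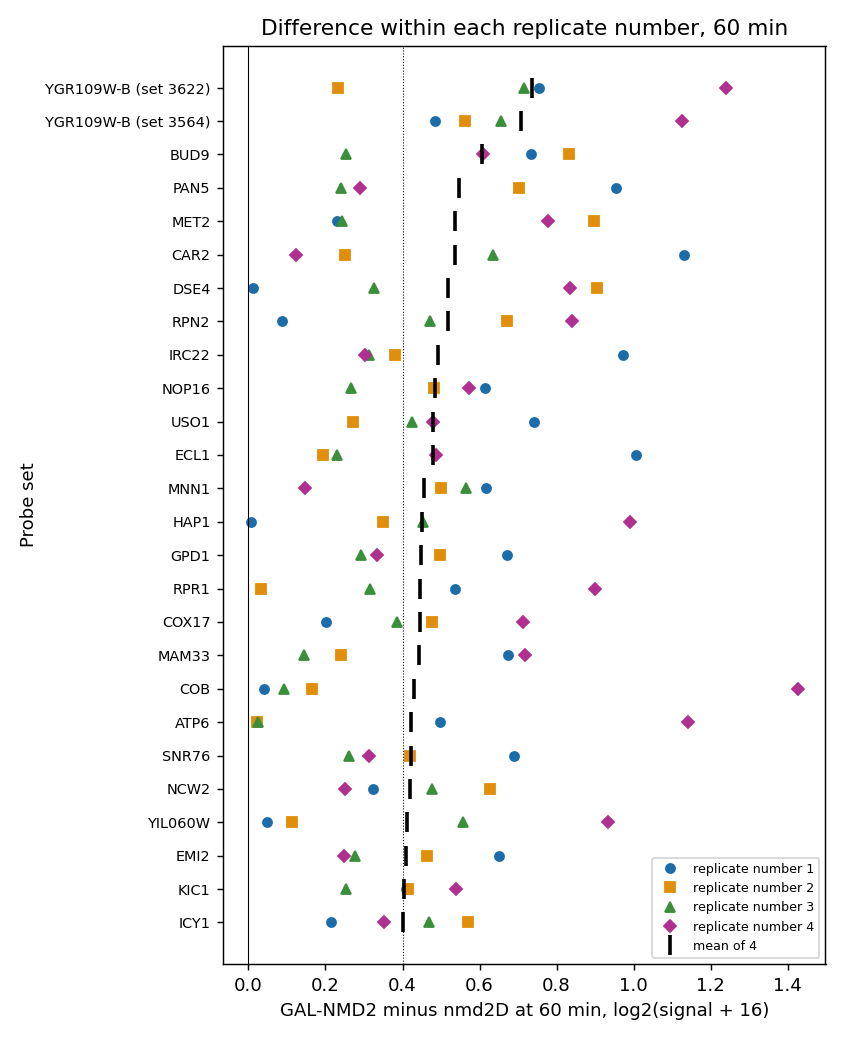
Strain difference at 60 min (x, GAL-NMD2 minus nmd2D, log2(signal + 16)) within each replicate number for every member (y); coloured symbols are replicate numbers, black bars their mean, and the dotted line is the threshold of 0.4. COB owes its mean to number 4 and ATP6 to numbers 1 and 4, whereas NOP16 and KIC1 have 4 points close together.

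The threshold cuts a continuous range. Just inside it were NCW2, YIL060W, EMI2, KIC1 and ICY1, at 0.42 to 0.40. Just outside were YHR138C, PET100, NNR1, TRA1 and CAP2, from 0.40 to 0.39, with differences of 0.30, 0.36, 0.24, 0.24 and 0.37 at 40 min.

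Among the 37 gene lists examined, 7 hold a member and none holds 2 of them, and 6 member genes are in any list. The list of NMD substrates holds no member, and 10 of its 19 tested genes were called lower and 0 higher at 40 min, with a median difference of -0.78.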

How the data were processed

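Hot phenol extracts supplied 6 ug of total RNA per sample for biotin-labelled cRNA, per the labels' protocols. MAS5 made the deposited values, which are linear signal intensities, per the submitters' processing notes; no version or setting of it is named. Leaving out the top and bottom of each array, the mean intensity of the remaining 96% of the deposited values was 250.155 to 250.222. Each array thus carries a common scaling by the authors, and each value is relative to its array. The number of arrays limits the precision. Detection calls were not used here.

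The table holds 9335 probe sets, 60 of them controls. Symbols came from the platform annotation: 6504 probe sets had 1, 328 several and 2443 none, and all 6504 matched the R64 gene table by gene identifier. Positions are not given, since neither a genome nor probe sequences were used.

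Intensities were transformed as log2(signal + 16), and folds on that scale understate changes of dim probe sets. The dimmest probe sets (mean under the 20th percentile) were dropped; the 7420 tested include all 26 members. limma 3.58.1 in R 4.3.3 was run on all 40 arrays with 1 mean per group (lmFit and trended eBayes, two-sided), with Benjamini-Hochberg adjustment over all probe sets tested. Tables were made with pandas 2.3.3 in Python 3.11.15. The fit of the strains at 40 min was tried on simulated arrays drawn independently. That trial cannot show how correlated cultures affect the fit. Comparisons were the strains at 10, 20 and 40 min, each strain from 10 to 40 min, and the difference of those changes. Every member could be named; arrays are given for the 12 with the largest difference at 60 min and for those called.

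The series design calls the replicates independent. Same-numbered arrays of the 2 strains deviated from their group means together: correlations across probe sets were at least 0.32 at 0, 10, 40 and 60 min, and at 20 min the lowest was 0.07. Those of 1 strain at 10 and 40 min correlated at 0.53 to 0.72. The numbers were therefore taken, from the data, to pair the samples outside 20 min. The main fit nevertheless left replicate number out and treated the 40 arrays as independent. In the block fit, replicate number is shared by both strains. No fit had a term for repeated sampling of the same culture, so the adjusted p values do not account for it. The members and the 37 gene lists were chosen with earlier results of these data known. Alternatives were a replicate block, centring, quantile normalization, other pseudocounts (1 and 64) and filters, only the arrays compared, and leaving out each replicate.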

Additional observations from a re-analysis of the deposited data

Results flagged for a closer look

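In 20 of 260 groups of 4 arrays, the highest or lowest signal of a member stood apart from the other 3 by Dixon's criterion; chance alone flags about 1 in 20 groups. BUD9 stood apart in GAL-NMD2 replicate 1 at each of the 5 times, at 135.5, 109.4, 138.3, 172.7 and 224.6, where the other arrays read 39.9 to 94.8. DSE4 read 479.8 in GAL-NMD2 replicate 3 at 60 min (others 743.7 to 745.2) and 737.7 in nmd2D replicate 1 at 60 min (others 379.6 to 410.1). ECL1 was high in replicate 4, at 1269.0 in GAL-NMD2 at 10 min and at 1148.8 and 1366.2 in nmd2D at 20 and 40 min. MNN1 was high in replicate 1, at 352.0 in GAL-NMD2 at 20 min and 295.1 in nmd2D at 10 min.

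MAM33 was high in GAL-NMD2 replicate 1, at 1231.2 at 0 min and 707.4 at 10 min. COB was high in replicate 1, at 55.9 in GAL-NMD2 at 20 min and 60.1 in nmd2D at 0 min. In nmd2D, HAP1 read 779.6 in replicate 1 at 40 min, GPD1 read 600.8 in replicate 1 at 60 min, and USO1 read 16.5 in replicate 4 at 60 min. EMI2 read 849.9 in GAL-NMD2 replicate 4 at 40 min. Of the 20, those of DSE4, USO1 and GPD1 at 60 min, and of BUD9 at 0 and 60 min, MAM33 at 0 min and COB at 0 min, are among the arrays that chose the members.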

How the results depend on the processing

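Which probe sets meet the rule depends on the scaling: 702 did with each array centred on its median (16 of the 26 among them), 270 with quantile normalization (15), 42 with a pseudocount of 1 (21), 16 with a pseudocount of 64 (14), and 34 to 56 when 1 replicate was left out (9 to 18). The number of members called at 40 min, 2, became 4 with the replicate block, 1 with quantile normalization, 0 with only the arrays compared, and 0 to 1 without 1 replicate. For GAL-NMD2 from 10 to 40 min the count of 1 became 6 with the replicate block, 2 with centring, 2 with quantile normalization, 0 with only the arrays compared, and 0 to 2 without 1 replicate. With the replicate block, nmd2D from 10 to 40 min went from 0 to 2 and the difference of changes from 0 to 1. The block and centring together, chosen after seeing the data, gave 14 at 40 min (17.6% of all probe sets were called higher), 4 at 20 min, 12 for GAL-NMD2, 2 for nmd2D and 2 for the difference of changes. The median difference at 40 min became 0.49 with centring, with or without the block, and ran from 0.26 to 0.37 without 1 replicate. Counts at 10 min were 0 under each alternative run.

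Of 439 single-gene values at 40 min under alternatives, 399 kept direction and call, 15 gained a call, 13 lost one and 12 changed direction, the last all on leaving out 1 replicate: MET2 (from -0.12 to 0.95), GPD1 (from -0.016 to 0.31), COB (from -0.11 to 0.55), ATP6 (from -0.12 to 0.32), EMI2 (from -0.12 to 0.26) and KIC1 (from -0.070 to 0.28). COX17 kept its call in 11 of 17 alternatives (0.40 to 0.74, adjusted p 0.000592 to 0.247) and NCW2 in 10 of 17 (0.52 to 0.79, adjusted p 7.27e-05 to 0.102), by limma in each. The cause of these shifts was not tested. USO1, SNR76 and COB, and MET2 in replicate 1, read near the bottom of the scale, where the pseudocount compresses differences.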
